A study of Rattus norvegicus with 138 samples.

Results

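Serum microRNAs (miRNAs) of male Sprague-Dawley rats carrying aluminium (Al) pellets in the gastrocnemius, a calf muscle, were compared with those of rats carrying tantalum (Ta) pellets. Ta is inert in muscle and served the study as its surgical control, so both groups went through the same operation. Each rat carried 4 pellets, 2 in each limb, each 1 mm wide and 2 mm long. The series text gives an age of 3 months at implantation and 8 rats per group. Serum was drawn 1, 3, 6 and 12 mo after implantation. The comparison rests on 31 libraries, beside 107 of the other metals in the series: 16 of Al (4 at each month) and 15 of Ta (4 at 1, 3 and 12 mo, 3 at 6 mo). They were chosen by metal and month alone. The labels number the libraries of a group but do not tie them to rats, so p-values measure the spread between these libraries. The question behind the study is whether serum miRNAs mark exposure to an embedded metal.

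miRNAs are short RNAs that pair through their seed, bases 2 to 8 counted from the 5′ end, with sites in messenger RNAs and lower their output. In serum they come from blood cells, platelets, endothelium, liver and other tissues, carried in vesicles or bound to protein, and muscle damage is known to release the muscle miRNAs miR-1-3p, miR-133a-3p and miR-206-3p. Serum levels are relative: a library shows shares of the miRNA reads, so less of one miRNA and more of the others cannot be told apart, nor can fewer releasing cells and less RNA per cell. The serum libraries held the miRNAs of these sources. The liver miRNA miR-122-5p and the red cell miRNA miR-451-5p were present in all 31 libraries, the white cell miRNA miR-223-3p in 15 of 16 Al and 14 of 15 Ta libraries.

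The mature sequences of the miRNAs described most closely are printed here because several of them share a seed and so count as 1 family of target sites. They are from RefSeq (assembly GRCr8), in which 434 of the 471 names in the count table were matched, and capitals mark the seed. The first 3 share their seed with each other, miR-1-3p shares its seed with miR-206-3p, miR-16-5p with miR-15b-5p, and let-7g-5p with miR-98-5p. miR-503-5p begins like miR-16-5p, but their seeds are not identical. let-7a-1-3p and let-7c-2-3p have the same sequence and the same count in every library.
miR-30a-5p: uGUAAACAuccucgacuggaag
miR-30c-5p: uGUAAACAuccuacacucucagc
miR-30e-5p: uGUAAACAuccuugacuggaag
miR-378a-3p: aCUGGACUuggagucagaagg
miR-423-5p: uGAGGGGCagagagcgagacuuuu
miR-140-3p: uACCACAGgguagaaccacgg
miR-191a-5p: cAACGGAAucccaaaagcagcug
miR-125b-5p: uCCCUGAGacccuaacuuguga
miR-503-5p: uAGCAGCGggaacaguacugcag
miR-16-5p: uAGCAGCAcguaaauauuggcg
miR-15b-5p: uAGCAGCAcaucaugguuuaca
miR-1-3p: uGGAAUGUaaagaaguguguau
miR-206-3p: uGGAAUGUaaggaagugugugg
let-7g-5p: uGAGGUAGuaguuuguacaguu
miR-98-5p: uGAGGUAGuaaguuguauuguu
let-7a-1-3p: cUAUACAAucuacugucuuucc

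In the 31 libraries, 1 Al and 1 Ta library at 3 mo held only 7909 and 1645 counts, while the others at that month held 176194 to 4884425. Results are therefore given with and without libraries under 20000 counts. The other 4 libraries under that limit belong to other metals. They enter the comparisons with Ta through the filter for low counts, the scaling of the libraries and the shared estimate of the spread. Fitted differences of Al from Ta can thus move with them. Without the cobalt library at 1 mo, 289 instead of 270 miRNAs were tested there. The share of differences above 0 was then 49.5% instead of 58.1%. Of the 4, 3 (tungsten, cobalt and depleted uranium) enter the comparison with the other metals directly. At 1 mo the Al libraries were deeper, with totals of 830140 to 2433675 against 316852 to 539673 in Ta, and the totals did not overlap (exact permutation test, two-sided, p = 0.0286, the smallest that 4 against 4 allows; 0.286 adjusted over 20 such tests). At 12 mo the order was the other way, with 214246 to 589967 in Al and 351094 to 1168200 in Ta (exact permutation p = 0.0857). The number of miRNAs with at least 1 read had a mean of 198 ± 14.0 (SD, n = 4) in Al and 182 ± 36.6 (n = 4) in Ta at 1 mo and of 168 ± 35.8 (n = 4) and 166 ± 40.0 (n = 4) at 12 mo. At 6 mo Al had fewer, 163 ± 28.8 (n = 4) against 196 ± 27.5 (n = 3), a gap larger than either SD (exact permutation p = 0.200). Over all months the exact permutation p was 0.882. Whether depth takes part in any difference below was not tested.

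**Figure D1:**
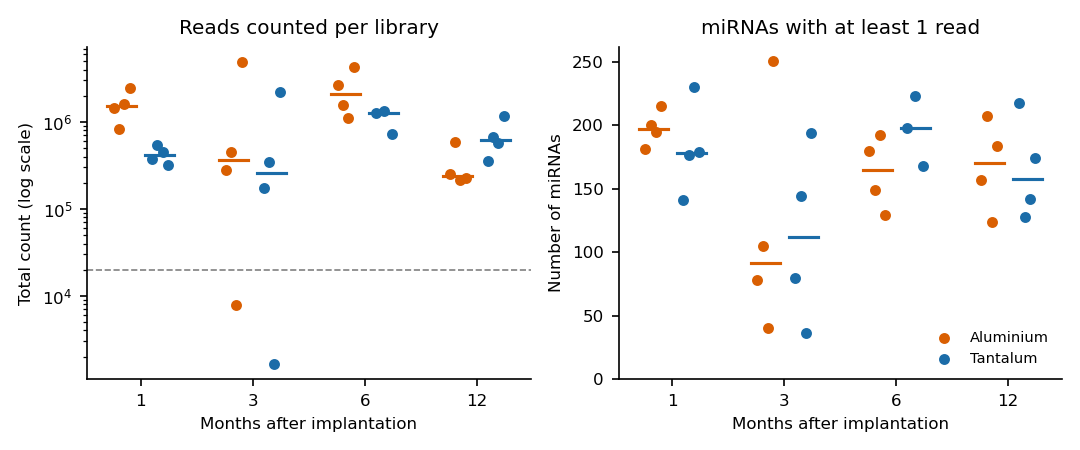
Total counts per library (left, log scale, dashed line at 20000 counts) and miRNAs with at least 1 read (right) for Al and Ta by month. Points are libraries and bars are group medians; 1 Al and 1 Ta library at 3 mo lie below the dashed line, and the Al totals at 1 mo all lie above the Ta totals.

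Differences were tested with edgeR's quasi-likelihood test on the deposited counts, and a miRNA was called at a Benjamini-Hochberg adjusted p under 0.05. Levels are CPM, counts scaled to library size, after scaling the libraries of a month to each other. Differences are log2 ratios of Al to Ta, given ± SE. A group pair is called apart here when every Al library lay above, or every one below, every Ta library. edgeR tested 270 miRNAs at 1 mo, 167 at 3 mo, 272 at 6 mo, 224 at 12 mo and 320 for the average over all months, and called 0 of them in each (0%). Numbers with an unadjusted p under 0.05 were, in that order, 25 (9.26%), 9 (5.39%), 28 (10.3%), 35 (15.6%) and 20 (6.25%). DESeq2 called 8, 6, 10, 17 and 31. limma called 1, 0, 0, 0 and 0. What follows for single months therefore describes the miRNAs with the smallest p and those whose groups were apart, and none of it passed the main test.

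At 12 mo every Al library stood above every Ta library for miR-423-5p, miR-378b, miR-378a-3p and miR-140-3p, and below every one for miR-125b-5p. The groups were apart for 14 of 224 miRNAs (6.25%), 10 higher in Al (4.46%) and 4 lower (1.79%). Higher were miR-423-5p, miR-423-3p, miR-140-3p, miR-151-5p, miR-378a-3p, miR-378b, miR-192-5p, miR-150-3p, miR-6216 and miR-877. Lower were miR-125b-5p, miR-15b-5p, miR-98-5p and miR-205.

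miR-423-5p, an abundant serum miRNA made in many tissues, stood at 13680, 11980, 5086 and 3991 CPM in the 4 Al libraries and at 3065, 575, 979 and 2339 CPM in the 4 Ta libraries. The lowest Al library lay above the highest Ta library, and the Al libraries fell into a high and a low pair. The means were 8684 ± 4857 (SD, n = 4) and 1739 ± 1162 (n = 4), a log2 difference of 2.32 ± 0.64 (edgeR adjusted p = 0.0963). Without the 1 library under 20000 counts at this month, a tungsten library, the difference was 2.63 and was called (edgeR adjusted p = 0.0408). It was also called without the first Ta library (log2 3.01, adjusted p = 0.0286) or the fourth Al library (log2 2.75, adjusted p = 0.0365). The other strand of the same hairpin, miR-423-3p, pointed the same way at 1451 ± 345 CPM (SD, n = 4) against 375 ± 228 CPM (n = 4), a log2 difference of 1.95 ± 0.65 (edgeR adjusted p = 0.174).

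miR-378b showed the clearest split by detection. It had reads in 4 of 4 Al libraries at 12 mo, at 41.7, 104, 91.5 and 21.6 CPM, and none in any of the 4 Ta libraries. The Al mean of 64.8 ± 39.5 CPM (SD, n = 4) was at least 65.9-fold higher than 3 counts over the Ta group would give (edgeR adjusted p = 0.0900, and 0.0420 without the low library). At 1 mo the order was the reverse: Ta libraries held 6.98, 42.2, 25.2 and 38.5 CPM, while 3 of 4 Al libraries held none and the fourth 2.50 CPM. The groups were apart in both months and in opposite directions. At 3 mo no Al or Ta library had a read of it. The test for a change of the difference between months gave an edgeR adjusted p of 0.125, and limma on log2 CPM gave 6.21e-08 for the change and 0.000248 for 1 mo alone. In limma an empty library takes a fixed low value set by the prior count. In the 24 libraries of the 6 other metals sampled at every month, miR-378b had a median of 0 CPM at 1 mo (range 0 to 4.03) and 27.4 CPM at 12 mo (range 0 to 390). The Al libraries lay within those ranges in both months, and the Ta libraries at 1 mo lay above theirs.

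miR-378a-3p, whose hairpin lies in an intron of the coactivator gene Ppargc1b and which is known for its part in lipid and mitochondrial metabolism, was at 7158 ± 1313 CPM (SD, n = 4) in Al and 2142 ± 1653 CPM (n = 4) in Ta at 12 mo. Al libraries ranged from 5662 to 8441 CPM and Ta libraries from 1011 to 4572 CPM, without overlap, and the log2 difference was 1.74 ± 0.89 (edgeR adjusted p = 0.323). miR-378a-3p did not share this order with miR-378b at 1 mo, where Al libraries held 1166 to 3093 CPM and Ta libraries 1396 to 4274 CPM, with overlap.

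miR-140-3p, a miRNA known from cartilage, stood at 1340, 2394, 3938 and 2786 CPM in Al at 12 mo and at 1050, 311, 668 and 1286 CPM in Ta. Every Al library was above every Ta library, with a log2 difference of 1.66 ± 0.54 (edgeR adjusted p = 0.174). At 6 mo the order was reversed: 2276, 1944, 2201 and 893 CPM in Al against 3702, 3485 and 3549 CPM in the 3 Ta libraries. That difference was smaller than its error allows to call (log2 -0.97 ± 0.85, edgeR adjusted p = 1.00), and the change between months had an edgeR adjusted p of 0.347. miR-150-3p and miR-423-3p were likewise lower in every Al library at 6 mo and higher in every Al library at 12 mo, and miR-151-5p was lower at 3 mo and higher at 12 mo. Their adjusted p for a change between months was 0.542, 0.448 and 0.453 in the same edgeR test.

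**Figure D2:**
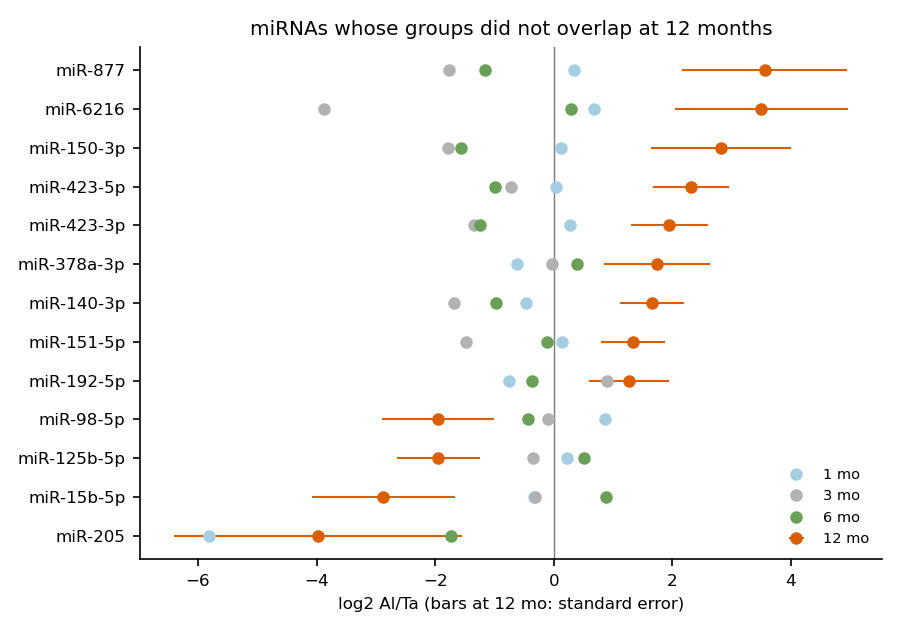
Log2 ratio of Al to Ta at each month for 13 of the 14 miRNAs whose groups did not overlap at 12 mo (miR-378b, with no read in Ta, is left out). Points are fitted values, and bars at 12 mo are standard errors; each of the 9 miRNAs right of 0 at 12 mo lies left of 0 in at least 1 earlier month.

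The most abundant miRNA in several libraries, miR-191a-5p, which blood cells and platelets carry in high amount, was at 312000, 403200, 26420 and 22830 CPM in Al at 12 mo and at 41610, 37570, 12640 and 14600 CPM in Ta. The groups overlapped: 2 Al libraries were far above all Ta libraries and the other 2 lay among them. The log2 difference was 2.85 ± 0.98 (edgeR adjusted p = 0.197). With DESeq2 it was 2.92 (adjusted p = 0.00651), and without the low-count filter edgeR called it (adjusted p = 0.00287). miR-191a-5p was chosen for its share of the reads after its values were seen. Its list, platelet and endothelium, in which miR-24-3p is the other abundant member, summed to 102400 to 484200 CPM in Al and 49340 to 96050 CPM in Ta at 12 mo, without overlap. That sum rests on the 2 abundant members: of the 7 in the list 3 had a difference above 0 and 4 below (median log2 -0.60), and none was apart. miR-192-5p, a liver and gut miRNA, stood at 106800 ± 47870 CPM (SD, n = 4) in Al and 44320 ± 3975 CPM (n = 4) in Ta, apart in every library (log2 1.27 ± 0.68, edgeR adjusted p = 0.366).

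Among miRNAs lower in Al at 12 mo, miR-125b-5p, a brake on p53 and on inflammatory signalling, was at 7045, 4627, 2138 and 1227 CPM in Al and at 8125, 9753, 10120 and 29940 CPM in Ta. Every Al library lay below every Ta library, the closest pair being 7045 and 8125 CPM, and the log2 difference was -1.95 ± 0.70 (edgeR adjusted p = 0.200). The fourth Ta library stood far above the others, and without it the difference was -0.98 (edgeR adjusted p = 0.468); without the first Al library it was -2.78 (adjusted p = 0.0644). miR-125a-5p, which has the same seed, differed by -1.30 ± 0.71 (edgeR adjusted p = 0.389) and its groups overlapped. miR-15b-5p stood at 38.3 ± 37.3 CPM (SD, n = 4) against 283 ± 158 CPM (n = 4), and miR-98-5p of the let-7 family at 96.6 ± 87.5 against 373 ± 104 CPM.

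miR-503-5p, which restrains the cell cycle and lies in a cluster with miR-322 and miR-450a, had no read in any Al library at 12 mo, while 2 of 4 Ta libraries held 369 and 157 CPM. miR-450a-5p had none in Al and 132, 95.8 and 37.7 CPM in 3 of 4 Ta libraries. Against a floor of 3 counts over the Al group these means were at least 45.9-fold and 23.2-fold lower in Al, and the edgeR adjusted p was 0.174 for both. The other strand, miR-503-3p, was present in all 8 libraries, at 296 ± 189 CPM (SD, n = 4) in Al and 987 ± 687 CPM (n = 4) in Ta (edgeR adjusted p = 0.298). miR-322-3p of the same cluster was at 2039 ± 1363 and 1520 ± 441 CPM, with the higher mean in Al, so members of this cluster differed in direction.

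The muscle miRNAs were of interest because the pellets lie in muscle. Of 7 names in the list, 5 were tested at 12 mo. All 5 had a fitted difference below 0 and none was called. Among all 224 tested miRNAs 114 were above 0 (50.9%) and 104 below. miR-1-3p, which promotes muscle differentiation, was at 45.9, 71.6, 0 and 721 CPM in Al and at 17190, 1470, 0 and 520 CPM in Ta (log2 -4.52 ± 1.68, edgeR adjusted p = 0.237). miR-1-3p at 12 mo was called in 2 of 16 settings. These were edgeR without the low-count filter (adjusted p = 0.000395) and DESeq2 (adjusted p = 0.04998). With 1 library left out its difference ran from -6.77 to -1.57, at an edgeR adjusted p of 0.123 to 0.672. The groups overlapped, and the Ta mean rests largely on 1 library. miR-206-3p, specific to skeletal muscle, was at 0, 662, 744 and 1425 CPM in Al and at 6255, 2188, 685 and 1258 CPM in Ta. The same Ta library was the highest for both. miR-133a-3p was found in 1 Al and 2 Ta libraries at 12 mo, and miR-499-5p, found in slow and heart muscle, in 1 of each. At 3 mo the order was the other way: the summed level of the muscle list had a median of 6457 CPM in Al (0 to 37340) and 967 CPM in Ta (0 to 2654), and miR-1-3p stood at 2145, 20130, 0 and 187 CPM in Al and at 0, 35.5, 0 and 346 CPM in Ta. Its log2 difference at 3 mo was 5.57 ± 2.54 (edgeR adjusted p = 0.773) and 6.30 without the low libraries (adjusted p = 1.00). Without the second Al library, the highest, it was 2.60 (edgeR adjusted p = 1.00), and without the fourth Ta library 8.48 (adjusted p = 0.480). Over all 4 months miR-1-3p was detected in 13 of 16 Al and 12 of 15 Ta libraries with a log2 difference of -0.23 ± 0.99, and miR-206-3p in 14 of 16 and 14 of 15 with -0.69 ± 0.74 (edgeR adjusted p = 1.00 for both).

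**Figure D3:**
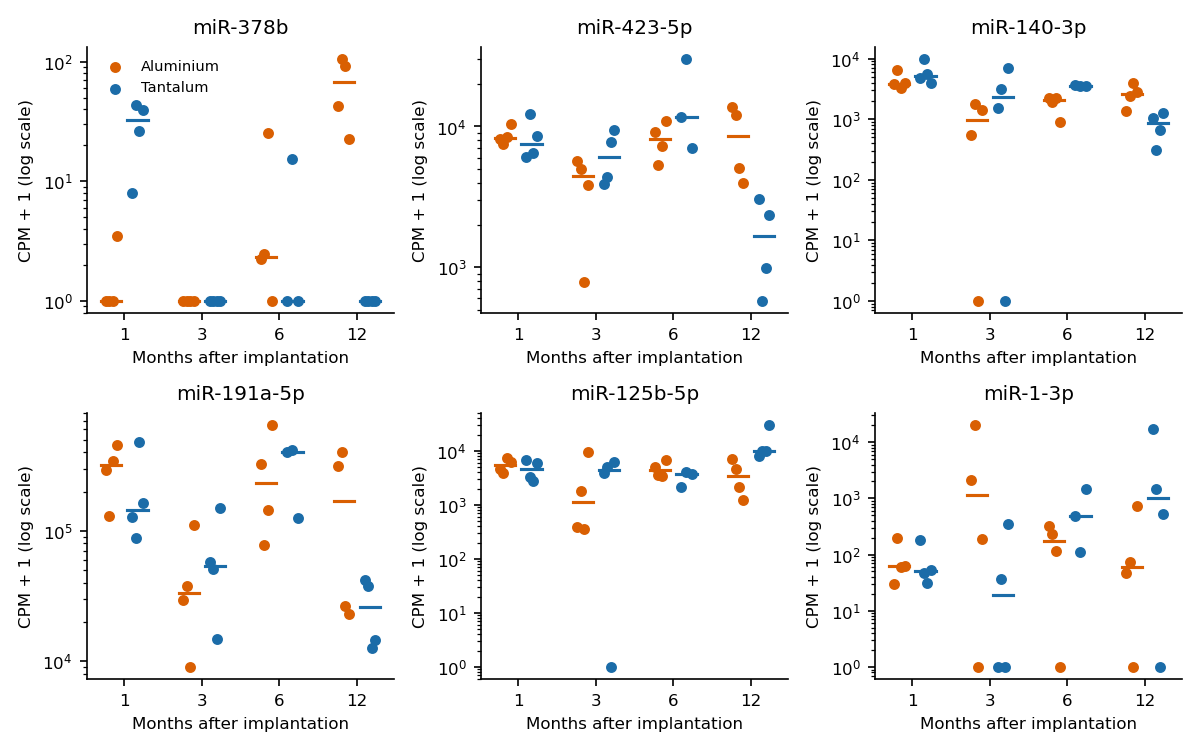
Levels (CPM + 1, log scale) of 6 miRNAs in each Al and Ta library by month, with group medians as bars. miR-378b is above all Al libraries in Ta at 1 mo and present in Al alone at 12 mo; miR-423-5p and miR-140-3p are higher in Al and miR-125b-5p lower at 12 mo, while miR-191a-5p and miR-1-3p overlap there.

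At 1 mo the miR-30 family stood higher in Al. Its members share 1 seed, are made in kidney, endothelium and other epithelia, and are known to hold back fibrosis and autophagy genes. All 4 members in the table were apart, each higher in every Al library. Of 270 miRNAs 7 were apart (2.59%), 6 higher (2.22%) and 1 lower (0.37%). A difference above 0 was fitted for 157 of all tested miRNAs (58.1%, and 44.1% with size factors of DESeq2 for scaling). For 99 it was below 0. miR-30d-5p was at 4071, 3344, 3640 and 3282 CPM in Al and at 1956, 782, 1245 and 1615 CPM in Ta (log2 1.36 ± 0.37, edgeR adjusted p = 0.210, and 0.109 without the low library of this month, a cobalt one). miR-30a-5p was at 1988, 1430, 2378 and 1492 CPM against 635, 676, 840 and 1333 CPM (log2 1.07 ± 0.46, edgeR adjusted p = 0.471). miR-30e-5p and miR-30c-5p had log2 differences of 1.30 ± 0.57 and 0.88 ± 0.65. The other 3 apart were miR-152-3p and miR-505-5p, higher, and miR-378b, lower. Scaling matters at this month: the median log2 difference of all tested miRNAs was 0.20, and -0.03 with the other size factors, under which miR-30d-5p was at 0.99 (edgeR adjusted p = 0.449).

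Summed over the 4 members, the family was at 6651 to 8806 CPM in Al and 2952 to 3635 CPM in Ta at 1 mo. At 12 mo the sums were apart the other way, 5018 to 8871 CPM in Al against 9708 to 15289 CPM in Ta, and the fitted differences of all 4 members were below 0 (median log2 -1.11, beside 0.07 over the miRNAs with reads in both groups). Levels are scaled within each month, so the sums are read against the other group of the same month. Beside the other metals, miR-30d-5p at 1 mo was at a median of 3770 CPM over 24 libraries (range 1880 to 6379), and the difference of Al from their mean was -0.01 ± 0.28 (edgeR adjusted p = 1.00). The Al libraries thus lay within the range of the other metals, and 3 of the 4 Ta libraries lay below it.

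**Figure D4:**
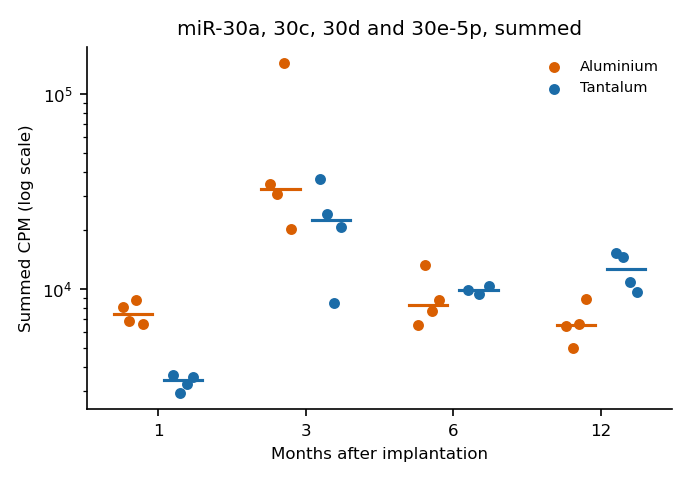
Summed level (CPM, log scale) of miR-30a-5p, miR-30c-5p, miR-30d-5p and miR-30e-5p in each Al and Ta library by month, with group medians as bars. At 1 mo all Al libraries lie above all Ta libraries, at 12 mo all lie below, and at 3 and 6 mo the groups overlap; the highest value, at 3 mo, is the Al library of 7909 counts.

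Other miRNAs with small p at 1 mo were scarce. miR-3559-5p had reads in 4 of 4 Al and 1 of 4 Ta libraries (53.4 ± 37.9 and 4.99 ± 9.97 CPM, SD, n = 4 each; log2 3.25 ± 1.18, edgeR adjusted p = 0.471); without the second Ta library, the only one with reads, it was called (adjusted p = 0.00971). miR-181d-3p was found in 3 and 0 libraries and miR-196b-5p in 2 and 0. miR-191b was found in 0 Al and 2 Ta libraries, and the neuronal miR-9a-5p and miR-29c-5p in 0 and 1. miR-205, an epithelial miRNA, had reads in 1 Al and 3 Ta libraries. These splits rest on few libraries with reads, and for them detections carry more than a fitted ratio.

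At 3 mo 8 miRNAs were followed, the 4 with the smallest p in each direction. For 5 of them 1 of the 2 nearly empty libraries stood far from the others of its group. The other 3 were miR-1-3p, its near copy miR-1b (reads in 3 Al and 2 Ta libraries for each) and miR-196a-5p (2 and 0). miR-16-5p, abundant in red cells, was at 187300 CPM in the Ta library of 1645 counts and at 601 to 3196 CPM in the other 3 Ta libraries; the Al libraries held 0, 897, 0 and 2162 CPM. Its log2 difference was -5.95 ± 1.91 with all libraries and -0.17 without the low ones (edgeR adjusted p = 0.373 and 1.00). The red cell miRNA miR-451-5p was at 289400 CPM in that Ta library and 7793 to 18930 CPM in the others, against 1318 to 15400 CPM in Al, and its difference went from -3.65 ± 1.23 to -1.60. miR-26a-5p went from -2.36 to 0.33, and miR-145-3p from -3.83 to 0.44. In the other direction miR-30a-5p was at 90580 CPM in the Al library of 7909 counts and 3587 to 5862 CPM in the other 3, and its difference went from 2.94 to 0.21. Without the fourth Al library instead, the deepest at this month, the same miRNA was called with a difference of 5.65 (edgeR adjusted p = 0.00936). Without the low libraries 1 of 180 miRNAs had an unadjusted p under 0.05 and edgeR called 0. miR-151-5p was the 1 miRNA of 167 apart at this month (0.599%), at 424 to 2182 CPM in Al and 2709 to 3869 CPM in Ta (log2 -1.48 ± 1.40, edgeR adjusted p = 0.997).

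**Figure D5:**
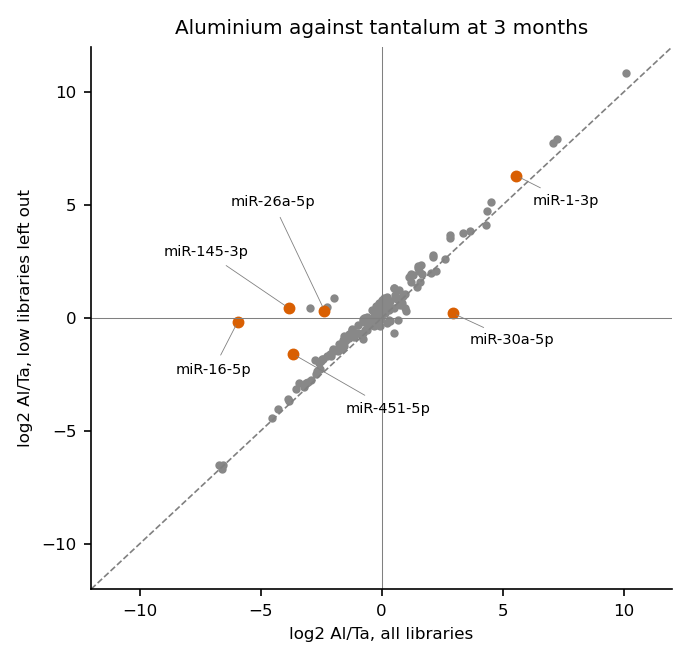
Log2 ratio of Al to Ta at 3 mo for each tested miRNA with all libraries (x axis) and without the libraries under 20000 counts (y axis); the dashed line marks equal values. miR-16-5p, miR-145-3p, miR-26a-5p and miR-30a-5p lie near 0 on the y axis and far from it on the x axis, while miR-1-3p lies near the dashed line.

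At 6 mo 18 of 272 miRNAs were apart (6.62%), 7 higher in Al (2.57%) and 11 lower (4.04%); with 3 Ta libraries this happens more readily than with 4. Of all 272 differences 107 lay above 0 (39.3%) and 142 below. The rest were 0, among them that of miR-499-5p, which had no read in either group. Higher were let-7g-5p, let-7e-5p, miR-99a-5p, miR-100-5p, miR-10a-5p, miR-23a-3p and miR-199a-3p. let-7g-5p, of the let-7 family that restrains growth genes, was at 11910, 21060, 11670 and 61710 CPM in Al and at 6481, 2366 and 9905 CPM in Ta (log2 2.09 ± 0.88, edgeR adjusted p = 0.454). miR-99a-5p, known as a regulator of mTOR, was at 37940, 32720, 16390 and 32950 CPM against 12190, 8286 and 7948 CPM (log2 1.66 ± 0.79, edgeR adjusted p = 0.454). At 12 mo both had lower means in Al, 14380 ± 8561 against 26030 ± 21930 CPM (SD, n = 4 each) for let-7g-5p and 26720 ± 28420 against 65940 ± 45970 CPM for miR-99a-5p, with overlap. Lower in every Al library at 6 mo were miR-140-3p, miR-423-3p, miR-150-3p, miR-101a-3p, miR-181b-5p, miR-106b-3p, miR-339-3p, miR-224-5p, miR-383-5p, miR-139-3p and miR-532-3p. miR-423-3p was at 219 to 1450 CPM in Al and 2228 to 2536 CPM in Ta. Of the miRNAs with the smallest p, miR-340-5p, miR-15b-3p and miR-106b-5p had reads in 0 of 4 Al and 2 of 3 Ta libraries, and miR-199a-5p in 0 and 1. miR-802-3p had reads in 3 Al and 0 Ta libraries, and miR-9a-5p in 1 and 0.

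Averaged over the 4 months, Al serum differed from Ta serum in no miRNA that edgeR called. The smallest adjusted p, 0.176, belonged to miR-340-3p and to the identical pair let-7c-2-3p and let-7a-1-3p. miR-340-3p had reads in 3 of 16 Al and 6 of 15 Ta libraries (log2 -5.01 ± 1.52), and it was called without the second Al library of 1 mo (log2 -6.85, edgeR adjusted p = 0.0436). The let-7 passenger strands also had reads in 3 and 6 libraries (log2 -4.21 ± 1.31). For miR-340-3p and these strands some months had no read in any Al library, so their fitted differences depend on how empty groups are treated. limma on log2 CPM gave -1.33 for miR-340-3p and -0.94 for the let-7 strands. miR-450a-5p was found in 5 of 16 Al and 11 of 15 Ta libraries (log2 -3.36 ± 1.33, edgeR adjusted p = 0.335). Without the second Ta library of 3 mo the difference of miR-450a-5p was -0.96 (edgeR adjusted p = 1.00), and without the third Al library of 6 mo -5.24 (adjusted p = 0.0769). miR-1843a-5p was found in 3 and 7. Higher in Al on average were miR-181d-3p (6 against 2 libraries), miR-702-3p (6 against 1), miR-31a-5p (5 against 1) and miR-183-5p (12 against 10), all with an edgeR adjusted p of 0.266 or more. miR-30a-5p averaged 1.37 ± 0.44 (edgeR adjusted p = 0.194) and miR-16-5p -1.69 ± 0.61 (adjusted p = 0.266); without the low libraries these were 0.08 and -0.0018.

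None of the miRNAs known as markers of tissue injury was called in that average. The liver marker miR-122-5p had the higher mean in Al at each month, from 29920 ± 16930 against 19130 ± 16930 CPM (SD, n = 4 each) at 1 mo to 226000 ± 105100 against 138500 ± 65870 CPM at 12 mo, with overlap at every month and a log2 difference of 0.68 ± 0.43 in the average. miR-21-5p, induced in injury and fibrosis, differed by -0.11 ± 0.39, the brake on inflammation miR-146a-5p by -0.55 ± 0.50 (0.28 without the low libraries), miR-223-3p of neutrophils by -0.19 ± 0.55, and miR-451-5p by -1.04 ± 0.51, the 1 among these 5 with an unadjusted p under 0.05 (0.0432). The edgeR adjusted p was 0.692 for miR-451-5p and 1.00 for the other 4. miR-155-5p was detected in 7 Al and 7 Ta libraries, miR-133a-3p in 6 and 5, miR-133b-3p in 1 and 2, miR-499-5p in 2 and 1, the hypoxia miRNA miR-210-3p in 1 and 1, and the p53 target miR-34a-5p in 1 and 3. For miR-133b-3p, miR-499-5p, miR-210-3p and miR-34a-5p the SE in the average was 349 to 6361. The test could not call these scarce miRNAs, so for them the absence of a call carries no information.

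By list, counts of members above and below 0 in the average over the months were, beside 153 above (47.8%) and 158 below among all 320 tested, 2 and 4 for muscle, 2 and 7 for erythrocyte, 4 and 2 for liver, 3 and 4 for platelet and endothelium, and 5 and 3 for leukocyte miRNAs. They were 1 and 5 for inflammation response, 4 and 3 for fibrosis, 3 and 5 for brain and neuron, 9 and 1 for kidney, 3 and 3 for bone and cartilage, and 3 and 3 for p53 targets. They were 6 and 3 for the let-7 family, 3 and 1 for the miR-30 family, and 4 and 7 for the miR-17-92 clusters. No member of any list was called in this average. Among miRNAs with reads in both groups at every month the median log2 difference was 0.28 for the kidney list (9 members, 0.47 without the low libraries) and -0.38 for the erythrocyte list (9 members, -0.15 without), beside -0.04 and 0.08 over all such miRNAs. The counts above and below 0 were taken with all libraries. Without the low libraries the same median turned from -0.37 to 0.24 for inflammation response (5 members). It turned from 0.64 to -0.08 for the miR-30 family (4 members). The 1 such member of the brain and neuron list went from -0.02 to 0.03. The kidney and miR-30 lists share miR-30a-5p, so they are not separate counts. Summed levels of the erythrocyte list overlapped between Al and Ta at every month (7245 to 27400 CPM against 14130 to 20460 CPM at 12 mo), so red cell RNA was in both groups; its part in single results was not tested. The liver list summed to 257300 to 396400 CPM in Al and 125200 to 270600 CPM in Ta at 12 mo, with overlap.

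Whether the difference between Al and Ta changed over time was tested in 1 fit over all libraries. edgeR called 3 of 320 miRNAs (0.938%): miR-30a-5p and miR-26a-5p (adjusted p = 0.00660 each) and miR-16-5p (adjusted p = 0.0360). Their 3 mo values are those described above, and without the low libraries edgeR called 0 of 326, with 33 at an unadjusted p under 0.05 (44 with them); the adjusted p of the 3 miRNAs was then 0.658, 1.00 and 1.00. At 3 mo the deviations of same-numbered Al and Ta libraries correlated over 0.1 in every pair. Total counts followed the same order by replicate number in both metals at that month, so pairing and depth cannot be told apart. They were lowest in the third library (7909 in Al, 1645 in Ta) and highest in the fourth. With the replicate number as a block within every month, edgeR also called 0 (adjusted p = 0.291, 0.291 and 0.544). miR-423-5p came next (adjusted p = 0.0722), with a difference 2.53 higher at 12 mo than at 1 mo on the log2 scale; without the low libraries its adjusted p was 0.342.

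The 6 other metals sampled at all months were tungsten, cobalt, iron, copper, lead and depleted uranium (95 libraries). Averaged over the months, 57.8% of 320 fitted differences of Al from their mean lay above 0. edgeR called Al higher in 13 of the 320 miRNAs (4.06%) and lower in 0. With the replicate number as a block within every month edgeR called 0 of the 13 (adjusted p = 0.122 to 1.00). They were miR-144-5p, miR-455-3p, miR-217-5p, miR-22-5p, miR-30a-5p, miR-702-3p, miR-181d-3p, miR-200b-5p, miR-802-5p, miR-29b-3p, miR-10b-3p, miR-1247-5p and miR-223-5p. miR-144-5p, made with the red cell miRNA miR-451, had reads in 9 of 16 Al libraries (56.3%) and 32 of 95 others (33.7%), with a log2 difference of 3.05 ± 0.67 (edgeR adjusted p = 0.00234). miR-455-3p had reads in 62.5% and 37.9% of libraries (edgeR adjusted p = 0.00234). For miR-702-3p the fitted difference of 2.22 ran against the plain means of the month-scaled levels, 7.29 ± 15.4 CPM (SD, n = 16) in Al and 17.6 ± 123.5 CPM (n = 95) in the others, of which 1 library at 3 mo held 1198 CPM. Of the 13, all but miR-30a-5p had no read in 2 to 12 of the 24 groups of other metals and in 0 of 4 Al groups. Their fitted differences and calls therefore depend on how empty groups are treated. limma on log2 CPM called 0 of the 13 (adjusted p = 0.969 for each), with log2 1.29 for miR-144-5p. Scarce miRNAs with empty groups both in Al and in other metals could not be called lower by the fit. Among these were miR-133b-3p, miR-499-5p, miR-210-3p and miR-34a-5p, with an SE of 1847 to 21390 in this comparison. The split of 13 higher and 0 lower therefore cannot be read as a direction. Without the low libraries edgeR called 10, and miR-30a-5p went from 1.17 to -0.060. Without the fourth Al library of 3 mo 2 were called, without the second Al library of 12 mo 5. With DESeq2 size factors for scaling 46.6% of all differences lay above 0, instead of 57.8%, and 8 miRNAs were called. Of the miRNAs apart from Ta at 12 mo, none differed from the other metals at that month in edgeR: miR-423-5p was 1.03 above their mean (adjusted p = 0.686), miR-378b 2.28 (adjusted p = 0.523), miR-140-3p 0.42 (adjusted p = 0.954) and miR-125b-5p -0.69 from it (adjusted p = 0.947). Over the 24 libraries of other metals at 12 mo miR-423-5p had a median of 4697 CPM (range 827 to 24530), between the means of Al and Ta, and miR-125b-5p one of 5570 CPM (range 661 to 26840).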

How the data were processed

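Small RNA from rat serum was made into libraries with a Norgen Biotek small RNA kit and sequenced on a NextSeq 500, per the labels' protocols. The authors deposited raw read counts of 471 mature miRNAs in libraries of 35 groups; reads were assigned on Rnor 6.0, per the submitters' processing notes. Not given in the sources used here are the miRBase release, the counting tool and the aligner. No 2 libraries were identical.

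From the counts, edgeR 4.0.16 in R 4.3.3 was used with TMM scaling, filterByExpr (minimum count 10, minimum total 15) and quasi-likelihood tests, adjusted by Benjamini-Hochberg within each comparison. Comparisons at 1 month used all libraries of that month; the average, the change between months and the comparison with other metals used every library of the series. Nickel, with no 12 mo group, was left out of the other metals. SE is the log2 difference divided by the root of F. CPM carry the TMM factors of the month, so they compare libraries within a month. Replicate numbers were taken to pair libraries where every same-numbered Al and Ta pair of a month had deviations correlated over 0.1. This held at 3 mo (0.152 to 0.460 in 4 pairs) and at no other month. The replicate block was nevertheless fitted within every month, also where the numbers did not pair. For a group without reads a floor of 3 counts over the group gives the bound; the fitted ratio depends on the prior. Such floors cover counting error only. Library totals (1645 to 4884425) and numbers of detected miRNAs were compared with exact permutation tests in Python 3.11.15.

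The rule for naming took the 4 miRNAs of smallest p in each direction at each month. For the average and against the other metals it took 10 in each direction, and for the change between months 10 in all. Every called miRNA, those apart and 14 always given were added. Not all of these are described above. The members and lists (99 names in 14 lists, 94 in the table) were chosen with earlier results of these data known. Alternatives were RLE size factors, no filter, DESeq2 1.42.0, no libraries under 20000 counts, a replicate block, only Al and Ta libraries, and each library left out. limma 3.58.1 on log2 CPM (prior count 2) and single months against other metals were chosen after seeing the data.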

Additional observations from a re-analysis of the deposited data

Results flagged for a closer look

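In 60 groups of 4 libraries whose values were looked at, 13 held a highest library whose gap to the next exceeded Dixon's 95% limit for 4 values. The miRNAs were picked from the results above and several flags come from the same library, so no chance rate applies to this count. At 3 mo these were miR-16-5p, miR-451-5p and miR-26a-5p in Ta (187300, 289400 and 273100 CPM, all in the library of 1645 counts), miR-30a-5p in Al (90580 CPM, in the library of 7909 counts), and miR-1-3p in Al (20130 CPM) and in Ta (346.4 CPM). At 12 mo they were miR-125b-5p in Ta (29940 CPM) and miR-1-3p in Al (721.3 CPM) and in Ta (17190 CPM), and at 1 mo miR-378b in Al (2.496 CPM, the 1 library with a read). For depth they were the totals of 4884425 (Al) and 2195682 (Ta) counts at 3 mo and 589967 (Al) at 12 mo. Of these values 4 belong to the 2 libraries with few counts.

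The difference between Al and Ta itself differed between months, by the test over all 4 months, for miR-30a-5p (edgeR adjusted p = 0.006602), miR-26a-5p (adjusted p = 0.006602) and miR-16-5p (adjusted p = 0.03599). Without the libraries under 20000 counts none of the 3 passed (adjusted p = 0.658, 1.00 and 1.00).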

How the results depend on the processing

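Without the low-count filter edgeR called 4 miRNAs at 1 mo, 1 at 3 mo, 1 at 6 mo, 5 at 12 mo, 5 in the average and 8 for the change between months. DESeq2 called 8, 6, 10, 17, 31 and 10, and 60 against the other metals; RLE size factors gave 3 at 3 mo and 8 against the other metals. limma called 1 at 1 mo, 5 for the change and 0 against the other metals. Without libraries under 20000 counts there were 2 at 12 mo and 0 for the change, and with only Al and Ta libraries fitted 0 for the change. Against the other metals, 1, 3 and 12 mo alone gave 0 each and 6 mo gave 17. Leaving out 1 library gave 0 calls at 6 mo throughout, 0 to 1 at 1 mo, at 3 mo and in the average, 0 to 2 at 12 mo, 0 to 4 for the change and 2 to 13 against the other metals; the change fell to 0 without the third Al or Ta library of 3 mo or the third Al library of 12 mo. The cause was not tested.

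The deviations of same-numbered Al and Ta libraries correlated over 0.1 in 4 of 4 pairs at 3 mo, where 3 correlated best with their own number. In the other months 2 of the 11 pairs correlated over 0.1. Library totals at 3 mo followed the same order by number in both metals, so pairing and depth cannot be told apart there. A replicate block gave 0 calls for the change and 0 against the other metals, and left 0 calls at each month and in the average.

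Of 2820 recomputed values of 124 named results, 2600 kept their direction and their side of the threshold, 117 lost and 72 gained a call or its side, and 31 turned. Turned without the low libraries were miR-26a-5p (0.33) and miR-145-3p (0.44) at 3 mo, miR-1-3p (0.048) and miR-146a-5p (0.28) in the average, and miR-30a-5p (-0.060) against the other metals. miR-139-3p against the other metals turned with DESeq2 (2.88) and with the replicate block (0.18). Turned when some 1 library was left out were miR-451-5p at 3 mo (-5.59 to 1.11); in the average miR-1-3p (-1.03 to 0.49), miR-21-5p (-0.20 to 0.055), miR-146a-5p (-0.71 to 0.27) and miR-223-3p (-0.42 to 0.014); and against the other metals miR-30a-5p (-0.19 to 1.27), miR-29b-3p (-1.08 to 2.03) and miR-139-3p (-1.32 to 0.048). The cause of these turns was not tested.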

Other observations

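Al was also set against the 6 other metals in each month alone, a comparison added after seeing the data. At 6 mo edgeR's quasi-likelihood test with Benjamini-Hochberg adjustment called Al higher in 17 of 272 miRNAs (6.25%) and lower in 0. At 1, 3 or 12 mo 0 were called. miR-29b-3p, of the miR-29 family that targets collagen genes, was the 1 of the 17 with reads in all 4 Al libraries, at 525.7, 395.4, 98.59 and 1334 CPM, and it had reads in 14 of 23 libraries of other metals (median 25.18 CPM, highest 872.4). Its log2 difference was 3.89 ± 1.02 (edgeR adjusted p = 0.0163). Reads of miR-29b-3p were present in all 3 Ta libraries of that month as well. miR-503-5p, without a read in Al at 12 mo, stood at 313, 0, 51.0 and 1402 CPM in Al at 6 mo and had reads in 9 of 23 libraries of other metals and in 3 of 3 of Ta (log2 5.10 ± 1.23, edgeR adjusted p = 0.0119). miR-802-5p and miR-802-3p, both strands of 1 hairpin, had reads in the same first 3 Al libraries, and in 6 and 3 of 23 other libraries. miR-9a-5p and miR-9a-3p, the strands of a neuronal miRNA, had reads in the second Al library alone, at 156 and 320.7 CPM, and in 0 and 1 of 23 other libraries. For 9 of the 17 a single Al library held all the reads, and each of the 17 had at least 1 group of other metals without a read, so their fitted ratios depend on the prior count. miR-199a-5p and miR-499-5p had no read in Al at 6 mo and none in 1 group of other metals. Their SE was 15400 and 10230, so the fit could not call them lower. The split of 17 higher and 0 lower therefore cannot be read as a direction.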
